A study of Homo sapiens with 6 samples.

Results

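The genes described are 10 AP-1 and immediate early genes: FOS, FOSB, FOSL1, FOSL2, JUN, JUNB, JUND, ATF3, EGR1 and IER2. They were chosen by symbol, all 10 were found among the 50883 gene symbols of the deposited count table, and all 10 passed the filter on low counts that left 18420 genes for testing. RNA was sequenced from 3 cultures infected with a lentivirus carrying a guide RNA against OTX2 (the OTX2 knockout group) and from 3 infected with one carrying a non-targeting guide (the control group). All 6 cultures were of D283, an established human medulloblastoma line, all received a virus that also expresses GFP, and all were collected after 7 days. No treatment with serum, drug or other stimulus is named in the labels. The line is 1 tumour's cells, the number of guides and the share of edited cells are not stated in the sources used here, nor whether single clones were picked.

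AP-1 is a family of paired transcription factors that bind DNA through a basic leucine zipper. JUN proteins pair with each other or with FOS proteins, FOS proteins need a JUN partner, and ATF3 can pair with JUN proteins. Most of these genes, JUN and ATF3 among them, are textbook immediate early genes, transcribed within minutes of a growth signal, of membrane depolarisation or of handling stress, without new protein synthesis, and their mRNAs are short-lived. In neurons FOS and EGR1 are used as markers of recent activity.

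OTX2 RNA, which checks the labels only weakly because an edit can leave a transcript in place, was at 765, 824 and 887 CPM in OTX2 knockout cells, against 1002, 979 and 909 CPM in control cells. CPM are counts divided by the library size, after its adjustment with the trimmed-mean factors of edgeR (TMM). Total counts lay between 60561438 and 62166870 in OTX2 knockout libraries and between 54540645 and 61662466 in control libraries. Control replicate 1 stood apart: mitochondrial ribosomal RNA took 0.304% of its counts, against 0.0941% to 0.111% in OTX2 knockout libraries and 0.0971% and 0.0675% in the other controls. Of 14 tested markers of Group 3 medulloblastoma and its photoreceptor-like programme, OTX2 and MYC were the most abundant, at 825 ± 61.1 and 1204 ± 159 CPM in OTX2 knockout cells and 964 ± 48.4 and 1725 ± 118 CPM in control cells (SD, n = 3 each), and RCVRN was too low to test. Of the 14, 12 fell and 1, NRN1, rose (2 with library totals as the scale). Of all tested genes, 18.5% fell and 21.2% rose at the threshold used below. Fibroblast and immune markers were low: the 18 summed to 35.3 to 36.1 CPM in OTX2 knockout libraries and to 23.0 to 24.9 CPM in control libraries, with CD3E at 0 in all. Of the 11 that could be tested, 6 rose, led by COL1A2 at 4.47 CPM in OTX2 knockout cells and 0.472 CPM in control cells, and 1 fell. Fewer cells of a type and less RNA per cell cannot be told apart in bulk RNA. These markers moved with the groups, and their part in the results below was not tested.

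Most of the 10 genes were higher in OTX2 knockout cells. FOS, FOSB, FOSL2, JUN, JUNB, ATF3 and EGR1, 7 of the 10, rose, and 0 fell, at a Benjamini-Hochberg adjusted p under 0.05 in edgeR's quasi-likelihood fit. At an unadjusted p under 0.05, 1 gene, FOSL1, was lower, and 0 fell with DESeq2 or limma-voom. Of all 18420 tested genes, 21.2% rose by the same rule and 39.7% changed in either direction. The median log2 fold change of the 10 genes was 0.50, against 0.01 over all tested genes, and 0 of the 10 changed more than 2-fold. The largest rises were those of FOS (1.85-fold), EGR1 (1.73-fold) and JUN (1.69-fold). The genes were chosen with earlier results of these data known, so these counts describe the set and do not test it.

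**Figure D1:**
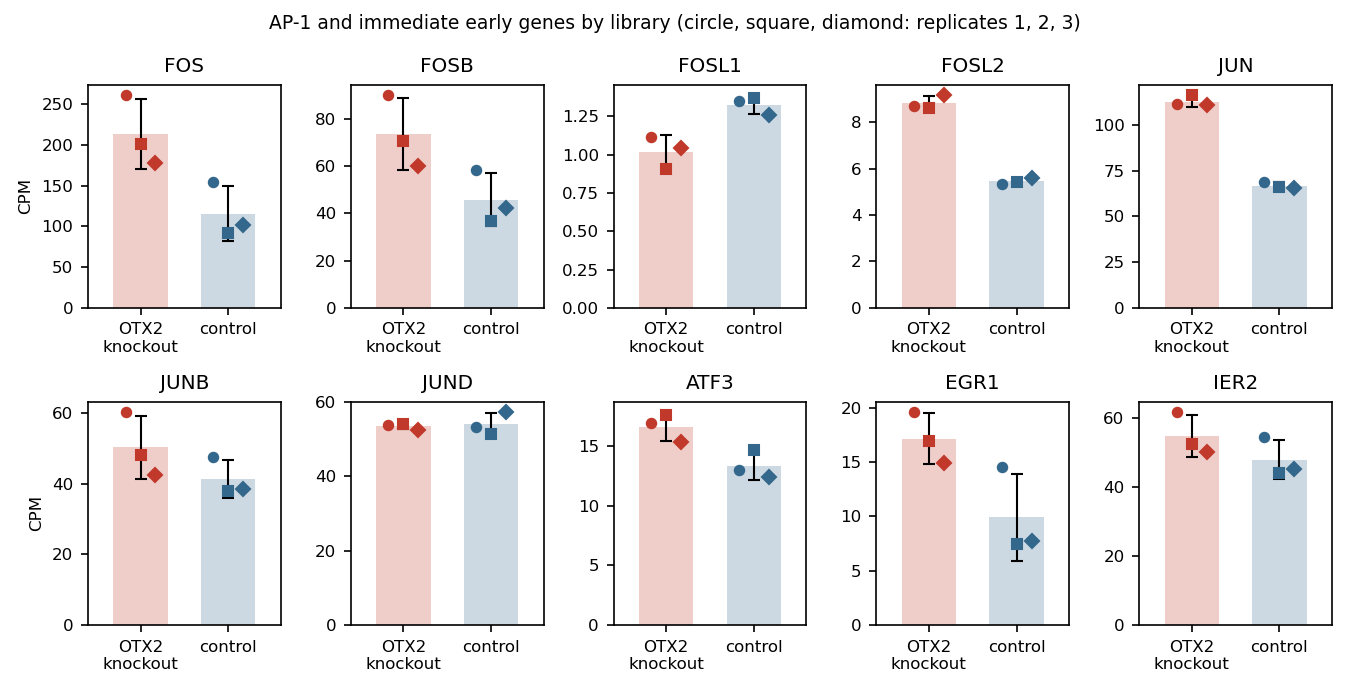
CPM of the 10 genes in each library, with bars at the group mean and error bars of 1 SD (n = 3 OTX2 knockout and 3 control libraries); each panel has its own axis from 0. For JUN and FOSL2 the points of each group lie close together and apart from the other group, whereas for FOS, FOSB and EGR1 the highest control library (153.98, 58.4 and 14.5 CPM) lies close under the lowest OTX2 knockout library (177.9, 59.9 and 14.9 CPM).

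The promoters of FOS, FOSB, EGR1 and JUNB, which rose, and of JUND, which did not pass the test, are shown. The window before a start site can carry sites through which growth signals or AP-1 itself act on a gene. RefSeq windows on GRCh38.p14, from 250 bases before to 50 after the annotated start, were matched by symbol for 9 of the 10 genes, with a pair of windows for ATF3, and FOSL1 is named only. The stretch from base -210 to the base before the first exon base of RefSeq or GENCODE is printed 5′ to 3′ on the strand of the gene, with these motifs in capitals on either strand: TGACG, the core of the cyclic AMP response element, TGACGTCA, the whole element, which contains the core on both strands, TGACTCA, the AP-1 site, TGACATCA, the AP-1-like site of the JUN promoter, GCGTGGGCG, the EGR site, TAATCC, the site bound by OTX2 and related homeobox factors, TATAAA, and the CArG box bound by serum response factor.
FOS (chr14:75278618-75278773, plus strand): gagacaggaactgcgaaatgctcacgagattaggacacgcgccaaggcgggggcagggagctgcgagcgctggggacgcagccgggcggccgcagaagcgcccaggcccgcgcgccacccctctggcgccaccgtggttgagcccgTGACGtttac
FOSB (chr19:45467786-45467994, plus strand): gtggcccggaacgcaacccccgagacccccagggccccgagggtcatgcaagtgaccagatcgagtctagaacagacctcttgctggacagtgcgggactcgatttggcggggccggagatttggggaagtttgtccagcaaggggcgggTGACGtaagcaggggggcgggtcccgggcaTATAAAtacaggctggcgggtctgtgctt
EGR1 (chr5:138465269-138465478, plus strand): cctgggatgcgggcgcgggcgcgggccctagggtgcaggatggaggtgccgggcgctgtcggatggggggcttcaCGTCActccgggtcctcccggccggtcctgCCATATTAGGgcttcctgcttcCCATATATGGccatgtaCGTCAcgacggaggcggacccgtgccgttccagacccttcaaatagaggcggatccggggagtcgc
JUNB (chr19:12791276-12791485, plus strand): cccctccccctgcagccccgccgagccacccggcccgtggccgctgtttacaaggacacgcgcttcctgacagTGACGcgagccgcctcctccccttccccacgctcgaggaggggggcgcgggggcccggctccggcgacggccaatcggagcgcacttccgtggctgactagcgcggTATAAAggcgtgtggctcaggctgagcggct
JUND (chr19:18281623-18281832, minus strand): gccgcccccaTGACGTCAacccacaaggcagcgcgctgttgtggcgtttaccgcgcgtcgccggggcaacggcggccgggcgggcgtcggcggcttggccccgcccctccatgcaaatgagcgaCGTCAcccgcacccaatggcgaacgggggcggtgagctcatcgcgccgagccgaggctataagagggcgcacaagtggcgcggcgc

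FOS and FOSB showed the same arrangement in these letters. TGACG began at base -64 of FOS and -60 of FOSB, and TATAAA followed at -33 of FOS and -30 of FOSB. GENCODE starts FOS farther upstream than RefSeq, so the printed FOS stretch ends at base -55 and leaves TATAAA out. JUNB had TATAAA at -31 and TGACG at -137. EGR1 had CArG boxes at -105 and -83, and TGACG on the opposite strand at -135 to -131 and at -66 to -62. JUN had TGACATCA at -67, within a longer first exon in GENCODE, and is not printed. JUND, which did not pass the test, had TGACGTCA at -200 and no TATAAA. The core TGACG was found in 8 of the 9 genes with a window and in 24.6% of all 35116 RefSeq windows of this length. TATAAA was found in 4 of the 9 genes, in ATF3 only at -230, and in 11.5% of all windows, and the CArG box in EGR1 and in 1.29% of all windows. TGACATCA was found in JUN and ATF3 and in 2.61% of all windows, TGACTCA in FOSL2, 5 bases after the start, and in 4.95% of all windows, and TGACGTCA in JUND and in 1.85% of all windows. TAATCC and GCGTGGGCG were found in 0 of the 9 genes, and in 6.36% and 0.795% of all windows. A match describes the letters in this window and shows no binding. Sites farther than 250 bases before the start were not looked for, so a motif not found here can still lie upstream.

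The JUN genes encode the partners that every AP-1 dimer of this family contains. JUN, the founding member, lies in a single exon on chromosome 1 from 58780788 to 58784327 on the minus strand (GRCh38, GENCODE release 29, as for all positions of genes given here). It was at 111.4, 116.3 and 110.7 CPM in OTX2 knockout libraries, against 69.1, 65.8 and 65.5 CPM in control libraries. The groups were far apart, and within each group the highest library exceeded the lowest by a factor of only 1.05. The log2 fold change was 0.76 (SE 0.05, edgeR quasi-likelihood adjusted p = 7.07e-09). JUNB, a JUN protein that activates transcription more weakly than JUN at many sites, has 1 exon on chromosome 19 from 12791496 to 12793315 on the plus strand. It was at 60.3, 48.2 and 42.6 CPM in OTX2 knockout libraries, against 47.7, 37.97 and 38.5 CPM in control libraries. The groups overlapped, because control replicate 1 lay above OTX2 knockout replicate 3. The log2 fold change of JUNB was 0.28 (SE 0.11, edgeR quasi-likelihood adjusted p = 0.0450), just under the threshold.

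The JUNB call was not stable. It was lost without OTX2 knockout replicate 1 (log2 fold change 0.14, adjusted p = 0.293 by edgeR), without OTX2 knockout replicate 2 (0.31, adjusted p = 0.0601), without control replicate 2 (0.22, adjusted p = 0.178) and without control replicate 3 (0.23, adjusted p = 0.117), and kept without control replicate 1 (0.39, adjusted p = 0.00361) and without OTX2 knockout replicate 3 (0.38, adjusted p = 0.00538). DESeq2 did not make it either (adjusted p = 0.255). JUNB counts are also uncertain in another way: 259 bases of its exon overlap exons of HOOK2 on the opposite strand, a gene whose count was 68.0% of that of JUNB, and strand-specific counting is not stated. HOOK2 itself was at 30.5 ± 1.19 CPM in OTX2 knockout cells and 32.4 ± 1.997 CPM in control cells (SD, n = 3 each).

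JUND, the JUN protein that is present in resting cells and is least dependent on stimulation, did not pass the test. Its 1 exon lies on chromosome 19 from 18279760 to 18281622 on the minus strand. It was at 53.9, 54.2 and 52.6 CPM in OTX2 knockout libraries, against 53.4, 51.4 and 57.2 CPM in control libraries, and the groups overlapped fully. Its log2 fold change was -0.011, with a 95% interval from -0.12 to 0.10 (edgeR quasi-likelihood adjusted p = 0.883). The interval of JUN, from 0.66 to 0.86, lay wholly above that of JUND.

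**Figure D2:**
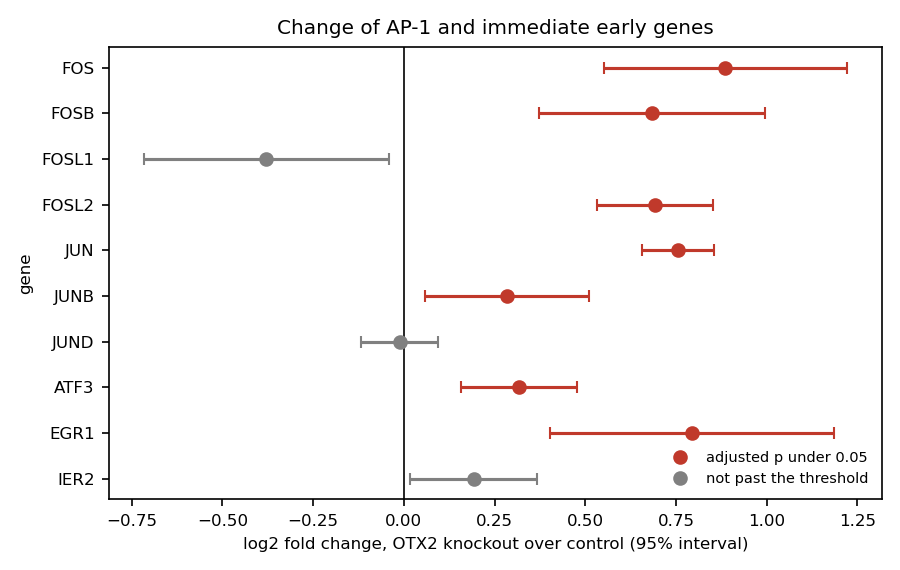
Log2 fold change of OTX2 knockout over control for each of the 10 genes, with its 95% interval from the edgeR fit, in red where the adjusted p is under 0.05 and grey otherwise. JUN has the narrowest interval of the rising genes (0.66 to 0.86), FOS and EGR1 have wide ones (0.55 to 1.22 and 0.40 to 1.19), and JUND lies at -0.011.

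The FOS genes encode the partners that bind DNA only together with a JUN protein. FOS lies on chromosome 14 from 75278774 to 75282230 on the plus strand. It was at 261.4, 201.3 and 177.9 CPM in OTX2 knockout libraries, against 153.98, 91.4 and 101.3 CPM in control libraries. All OTX2 knockout libraries were above all controls, but OTX2 knockout replicate 1 and control replicate 1 were each well above the others of their group. The means were 214 ± 43.0 and 116 ± 33.6 CPM (SD, n = 3 each, OTX2 knockout and control), and the log2 fold change was 0.89 (SE 0.16, edgeR quasi-likelihood adjusted p = 0.000363). Without control replicate 1, the library that stood apart, the log2 fold change of FOS was 1.14. That was the highest value over 14 alternative settings of the analysis, and the lowest was 0.72.

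FOSB, which in neurons also gives rise to the long-lived splice form known as delta FosB, lies on chromosome 19 from 45467995 to 45475179 on the plus strand. It was at 90.0, 70.5 and 59.9 CPM in OTX2 knockout libraries, against 58.4, 36.5 and 42.3 CPM in control libraries. The groups did not overlap, but the gap between the lowest OTX2 knockout library and the highest control was small. Its log2 fold change was 0.68 (SE 0.15, edgeR quasi-likelihood adjusted p = 0.00161), and 0.90 without control replicate 1. The lowest value over the 14 alternative settings was 0.51. The counts are per gene, so the splice forms could not be told apart.

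FOSL2, which encodes the FOS relative FRA2, lies on chromosome 2 from 28392448 to 28417312 on the plus strand. It was at 8.70, 8.62 and 9.18 CPM in OTX2 knockout libraries, against 5.36, 5.42 and 5.61 CPM in control libraries. The groups were clearly apart and each was tight, as for JUN. The log2 fold change was 0.69 (SE 0.08, edgeR quasi-likelihood adjusted p = 3.25e-06). Without control replicate 1 it was 0.68, and that of JUN 0.78. FOSL1, which encodes the relative FRA1 and lies on chromosome 11 from 65892049 to 65900573 on the minus strand, was the one gene of the 10 with lower values in every OTX2 knockout library, at 1.11, 0.906 and 1.04 CPM, against 1.35, 1.37 and 1.26 CPM in control libraries. These values rest on 56 to 71 counts in OTX2 knockout libraries and 67 to 81 in control libraries. FOSL1 did not pass the test (log2 fold change -0.38, 95% interval -0.71 to -0.04 before adjustment, edgeR quasi-likelihood adjusted p = 0.0701). For 7 of the 10 genes every CPM value of one group was above every value of the other, 6 of them higher in OTX2 knockout cells and FOSL1 lower. Over all tested genes, 49.2% were separated in this way, 26.2% with the higher values in OTX2 knockout cells.

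ATF3, a stress-induced basic leucine zipper protein that pairs with JUN proteins and can repress transcription, lies on chromosome 1 from 212565334 to 212620777 on the plus strand. It was at 16.9, 17.6 and 15.3 CPM in OTX2 knockout libraries, against 12.9, 14.6 and 12.4 CPM in control libraries. The groups did not overlap but were close. Its log2 fold change was 0.32 (SE 0.07, edgeR quasi-likelihood adjusted p = 0.00334), and 0.29 without control replicate 1. ATF4, which activates ATF3 in the integrated stress response, fell to 681 CPM in OTX2 knockout cells, against 838 CPM in control cells (log2 fold change -0.30).

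EGR1 encodes a zinc finger transcription factor that is not part of AP-1 but is induced with FOS by the same signals. It lies on chromosome 5 from 138465490 to 138469315 on the plus strand and was at 19.6, 16.9 and 14.9 CPM in OTX2 knockout libraries, against 14.5, 7.42 and 7.73 CPM in control libraries. Control replicate 1 was at 1.96 times the lowest control and almost reached the lowest OTX2 knockout library. The log2 fold change was 0.79 (SE 0.18, edgeR quasi-likelihood adjusted p = 0.00291), and 1.18 without control replicate 1, but DESeq2 did not call it (adjusted p = 0.0560). For EGR1 the lowest value over the 14 alternative settings was 0.62. IER2, a small nuclear protein of the same early wave, lies on chromosome 19 from 13150415 to 13154908 on the plus strand. It was at 61.6, 52.5 and 49.97 CPM in OTX2 knockout libraries, against 54.3, 44.1 and 45.2 CPM in control libraries. The groups overlapped, and IER2 did not pass the test (log2 fold change 0.19, 95% interval 0.02 to 0.37 before adjustment, edgeR quasi-likelihood adjusted p = 0.0775). It passed without control replicate 1 (0.29, adjusted p = 0.00327) and without OTX2 knockout replicate 3 (0.24, adjusted p = 0.0302).

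The spread between replicates differed among the 10 genes. Replicate numbers follow the order of the samples and only name libraries, so a number shared by both groups pairs nothing. FOS, FOSB, EGR1, JUNB and IER2 had the same order of libraries in both groups: replicate 1 was highest and replicate 3 lowest in OTX2 knockout cells, and replicate 1 was highest and replicate 2 lowest in control cells. The highest OTX2 knockout library exceeded the lowest by factors of 1.47 for FOS, 1.502 for FOSB, 1.31 for EGR1, 1.41 for JUNB and 1.23 for IER2, and the highest control exceeded the lowest by factors of 1.68, 1.599, 1.96, 1.26 and 1.23 for these genes. JUN, JUND and FOSL2 were within factors of 1.05, 1.03 and 1.06 in OTX2 knockout cells and 1.05, 1.11 and 1.05 in control cells. ATF3 and FOSL1 had factors of 1.15 and 1.23 in OTX2 knockout cells and 1.18 and 1.09 in control cells, so the spread was graded. Of all 18420 tested genes, 470 (2.55%) had the library order of FOS in both groups. Of 42 tested immediate early genes outside the 10, 4 had it, namely DUSP1, ZFP36, BTG2 and EGR2. This grouping of the genes was noticed after the values were seen. Control replicate 1 was also the library with the most mitochondrial ribosomal RNA, whereas OTX2 knockout replicate 1 was at 0.103%, between the other OTX2 knockout libraries at 0.111% and 0.0941%. The part of the mitochondrial RNA share in this spread was not tested.

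**Figure D3:**
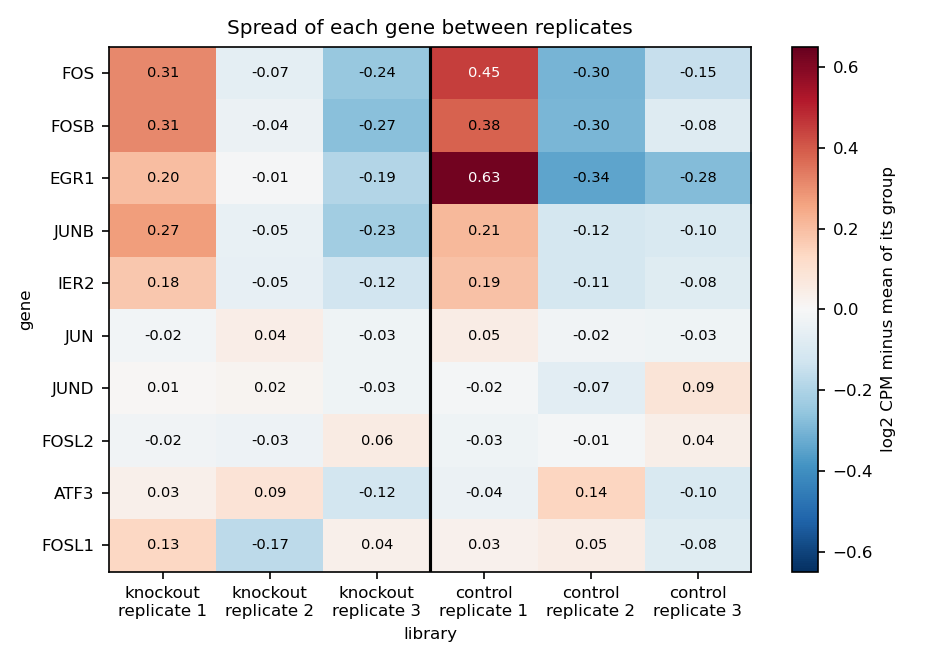
Log2 CPM of each gene in each library minus the mean of its group (3 OTX2 knockout libraries on the left, 3 control libraries on the right), red above and blue below the mean. FOS, FOSB, EGR1, JUNB and IER2 are above the mean in replicate 1 of both groups, by 0.18 to 0.63, while JUN, JUND and FOSL2 stay within 0.09 of their group mean everywhere.

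Likeness over the 6 libraries was measured as the root mean square difference of log2 CPM, each gene centred on its own mean, among the tested genes with a mean of at least 5 CPM. Of 11048 such genes, the pattern of FOS was nearest to DUSP1 (difference 0.07), then EGR1 (0.11) and FOSB (0.12). DUSP1, a phosphatase that inactivates MAP kinases and is itself an immediate early gene, was at 83.5, 65.9 and 60.3 CPM in OTX2 knockout libraries, against 47.6, 32.8 and 34.8 CPM in control libraries. Its libraries thus had the order of those of FOS, and it rose 1.82-fold (edgeR quasi-likelihood adjusted p = 5.59e-05). EGR1 was nearest to FOS and then DUSP1, and FOSB to DUSP1 and then MIR24-2. JUNB was nearest to IER2 (0.07) and then WDR52.

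JUN and FOSL2 had patterns close to each other. The nearest genes to JUN were BTN2A2 and PALLD, both with a difference of 0.02, and those to FOSL2 were TAPBP (0.02) and SPATA13 (0.02). FOSL2 stood 65th from JUN, with a difference of 0.070, and FOS stood 1501st from JUN, with a difference of 0.28. The ranks are not symmetric: counted from FOS, JUN stood 67th and FOSL2 291st of the 11048 genes. ATF3 was nearest to SRC and TRIM26, both with a difference of 0.04.

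Levels of different genes were compared per length, as CPM per kb of merged exons in GENCODE release 29. FOS had the highest level in both groups, at 65.95 ± 13.3 CPM per kb in OTX2 knockout cells and 35.7 ± 10.4 CPM per kb in control cells (SD, n = 3 each). In OTX2 knockout cells JUN (31.9 ± 0.866), JUND (28.7 ± 0.467) and JUNB (27.7 ± 4.95) came next. The JUNB libraries, from 23.4 to 33.1 CPM per kb, spanned those of JUN and JUND, while JUN (31.3 to 32.9) and JUND (28.2 to 29.1) did not overlap. In control cells the order was JUND (28.98 ± 1.59), JUNB (22.7 ± 3.01) and JUN (18.9 ± 0.560), with no overlap between neighbours. IER2 (17.8 ± 1.99 in OTX2 knockout and 15.6 ± 1.83 in control cells) and FOSB (13.2 ± 2.75 and 8.24 ± 2.04) were below the JUN genes in both groups. EGR1 (5.46 ± 0.743 in OTX2 knockout and 3.15 ± 1.28 in control cells) and ATF3 (4.11 ± 0.296 and 3.30 ± 0.286) were lower again, and their control libraries overlapped. FOSL2 (1.23 ± 0.0421 in OTX2 knockout and 0.763 ± 0.0180 in control cells) and FOSL1 (0.541 ± 0.0563 and 0.704 ± 0.0328) were the lowest, and in control cells their ranges of 0.749 to 0.784 and 0.666 to 0.727 CPM per kb did not overlap. In control cells the FOS libraries, from 28.2 to 47.6 CPM per kb, overlapped those of JUND, from 27.6 to 30.7 CPM per kb. With the longest transcript as the length, the OTX2 knockout level of FOS was 98.96 and that of ATF3 7.90 CPM per kb, and 6 of the 10 genes kept their place in the OTX2 knockout order: FOSB and IER2, and EGR1 and ATF3, changed places.

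The make-up of the JUN family RNA differed between the groups. JUN took 33.7%, 37.2% and 37.7% of the summed level of JUN, JUNB and JUND per kb in OTX2 knockout libraries, against 26.2%, 27.7% and 26.3% in control libraries. JUND took 30.9%, 32.9% and 34.0% in OTX2 knockout libraries, against 38.5%, 41.1% and 43.7% in control libraries. Neither share overlapped between the groups. The share of JUNB did overlap, at 31.2 ± 3.74% in OTX2 knockout cells and 32.1 ± 2.74% in control cells (SD, n = 3 each). Within the FOS family, FOS itself took 81.4 ± 0.283% in OTX2 knockout cells and 78.4 ± 1.28% in control cells, and FOSB 16.3 ± 0.313% and 18.2 ± 0.610%. The summed level of the FOS family was 67.6 to 98.7 CPM per kb in OTX2 knockout libraries and 36.3 to 59.5 CPM per kb in control libraries.

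**Figure D4:**
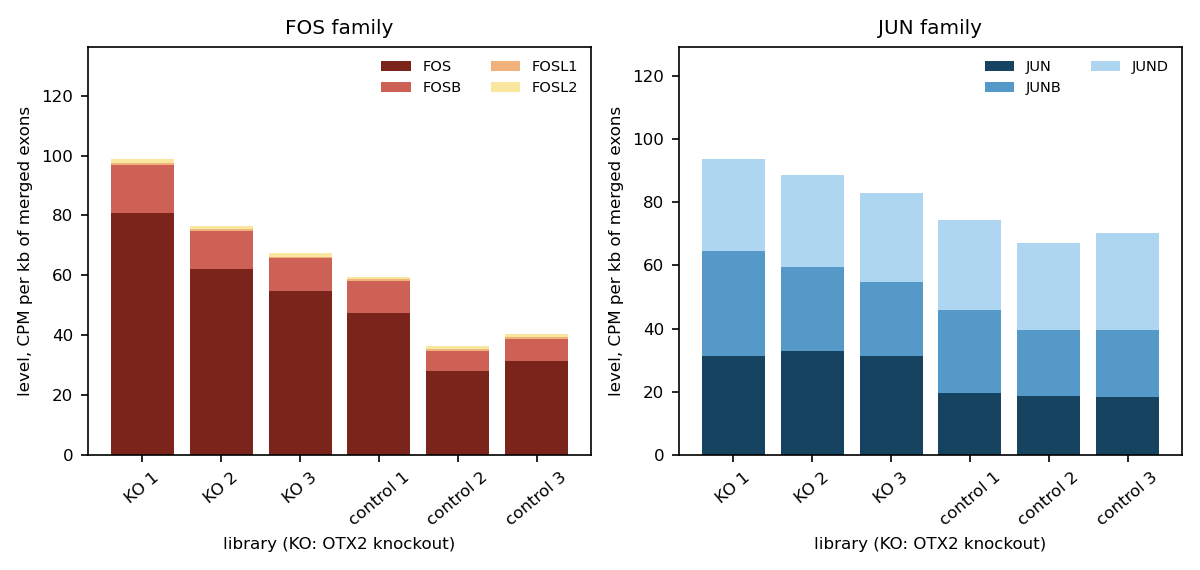
Level in CPM per kb of merged exons of each FOS family gene (left) and JUN family gene (right) in each library, stacked (KO: OTX2 knockout). FOS makes up most of its family in every library, and the JUN segment is taller in the 3 OTX2 knockout libraries (31.3 to 32.9 CPM per kb) than in the 3 controls (18.5 to 19.5 CPM per kb), while the JUND segment is of like height in all.

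Other immediate early genes, listed from textbook knowledge, moved in both directions. Of 47 listed, 42 were tested, and 19 rose, 11 fell and 12 did not pass. The median log2 fold change was 0.19, and of all tested genes 21.2% rose and 18.5% fell. Among the rises were BTG2, an antiproliferative gene, at 63.8 CPM in OTX2 knockout cells and 27.7 CPM in control cells (2.30-fold), GEM, a small GTP-binding protein (2.79-fold), and the growth arrest genes GADD45G (2.71-fold) and GADD45B (2.41-fold). MYC, the most abundant of the list, fell to 1204 ± 159 CPM in OTX2 knockout cells, against 1725 ± 118 CPM in control cells (SD, n = 3 each), and SGK1, the next most abundant, did not pass (log2 fold change -0.03).

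Several close relatives, chosen after their values were seen, went separate ways. KLF4 rose 2.43-fold, whereas KLF2 fell to 2.42 CPM in OTX2 knockout cells, against 4.604 CPM in control cells, and KLF6 fell to 85.7 CPM, against 121.5 CPM in control cells. GADD45A fell to 19.7 CPM in OTX2 knockout cells, against 33.9 CPM in control cells, while the other GADD45 genes rose. NR4A1, a nuclear receptor induced like FOS in many cells, had 18.2 CPM in OTX2 knockout cells and 20.2 CPM in control cells and did not pass (log2 fold change -0.15, edgeR quasi-likelihood adjusted p = 0.0718). IER3 did not pass either (log2 fold change -0.08). EGR2 rose, but at 0.339 CPM in OTX2 knockout cells and 0.168 CPM in control cells it was far below EGR1, and the neuronal activity genes NPAS4 and EGR4 were too low to test. ARC, another neuronal activity gene, rose to 0.587 CPM in OTX2 knockout cells, against 0.181 CPM in control cells.

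**Figure D5:**
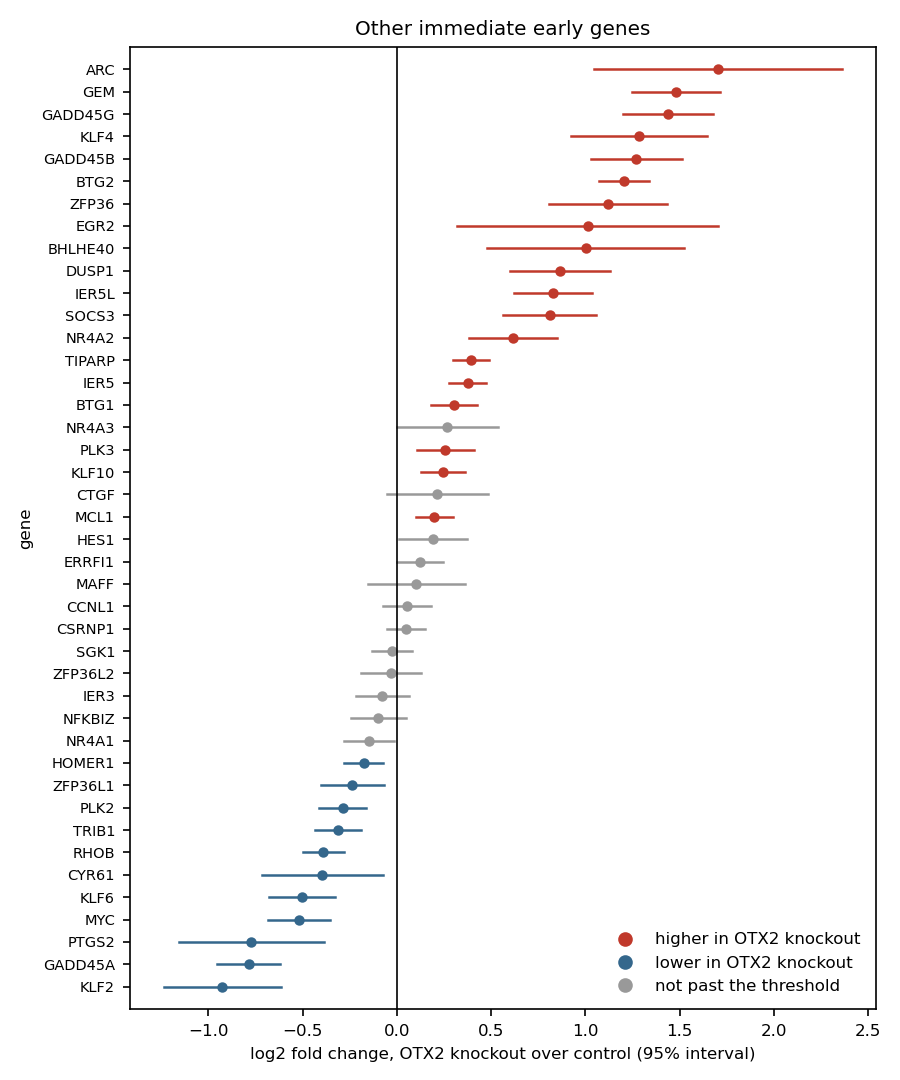
Log2 fold change of OTX2 knockout over control with its 95% interval for the 42 tested immediate early genes outside the 10, sorted by size. Red points are the 19 genes that rose, blue points the 11 that fell and grey points the 12 that did not pass the test, from ARC at 1.70 to KLF2 at -0.93.

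MAP kinase signalling drives FOS and EGR1 and is held back by phosphatases and feedback genes. Of 23 tested genes listed under this heading, 15 rose and 2 fell (median log2 fold change 0.35), against 21.2% of all tested genes that rose and 18.5% that fell. ETV1, ETV4 and ETV5, which are transcription factors that carry out ERK signalling and do not restrain it, are in the list and among the rises. ETV4 and ETV5 are named after their values were seen. The call of ETV4 was just under the threshold (edgeR quasi-likelihood adjusted p = 0.0496), and its groups overlapped. ETV4 is also uncertain because its exons overlap DHX8, whose count was 5737% of that of ETV4. DUSP6, a phosphatase of ERK kinases, rose 3.15-fold, DUSP5 2.36-fold and the transcription factor ETV1 1.79-fold. The falling genes, DUSP7 and RASA1, were named after their values were seen, and RASA1 has exons that overlap CCNH. There was 1 falling gene when libraries were scaled by their totals, and 1 when control replicate 2 or 3 or OTX2 knockout replicate 1 or 2 was left out. The most abundant genes of the list, NF1 and PHLDA1, did not pass. DUSP1 and IER3 are in this list and in the preceding one, so the counts of these lists are not independent.

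Kinases and transcription factors upstream of AP-1 genes were mixed, with 11 of 40 tested genes up, 10 down and a median log2 fold change of 0.03, beside 21.2% up and 18.5% down over all tested genes. MAP3K1, a kinase that feeds the JNK pathway, rose 1.49-fold, the ternary complex factor ELK3 2.41-fold and MEF2C 2.65-fold. MAP2K1 rose 1.36-fold, with exons that overlap SNAPC5. SRF, the serum response factor itself, chosen after its values were seen, had a log2 fold change of -0.04 and did not pass. Scaled by library totals, 4 genes of this list fell.

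Among basic leucine zipper relatives of AP-1, 5 of 27 tested genes rose and 9 fell (median log2 fold change -0.011). Over all tested genes 21.2% rose and 18.5% fell. JDP2, which pairs with JUN and represses AP-1 sites, fell to 30.3 CPM in OTX2 knockout cells, against 46.4 CPM in control cells (log2 fold change -0.61, SE 0.05, edgeR quasi-likelihood adjusted p = 1.55e-07). CREB5 rose to 1.62 CPM in OTX2 knockout cells, against 0.277 CPM in control cells. CEBPB fell to 15.6 CPM in OTX2 knockout cells, against 21.2 CPM in control cells, and NFE2L1 did not pass.

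Of 17 tested regulators of AP-1 protein and mRNA turnover, 2 rose and 4 fell (median log2 fold change -0.05). The shares over all tested genes were 21.2% up and 18.5% down. ZFP36, which speeds the decay of FOS and other short-lived mRNAs, rose 2.17-fold, to 5.23 CPM in OTX2 knockout cells, against 2.41 CPM in control cells. Its relative ZFP36L1 fell to 26.9 CPM in OTX2 knockout cells, against 31.8 CPM in control cells, and HNRNPD to 95.3 CPM, against 117.5 CPM in control cells. FBXW7 and COP1 (listed as RFWD2), which target JUN protein for degradation, were chosen after their values were seen, and neither passed (log2 fold changes -0.04 and -0.07). Scaled by library totals, and without OTX2 knockout replicate 1 or 2, there were 2 falling genes, and there was 1 rising gene when control replicate 2 or 3 or OTX2 knockout replicate 2 or 3 was left out.

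Textbook targets of AP-1 were a mixed group. Of 36 listed, 25 were tested, and 10 rose and 4 fell (median log2 fold change 0.12), beside 21.2% up and 18.5% down over all tested genes. The matrix protease MMP2 rose to 21.8 CPM in OTX2 knockout cells, against 13.9 CPM in control cells, and the urokinase PLAU rose 1.73-fold. The keratin KRT5 rose to 4.06 CPM in OTX2 knockout cells, against 0.0237 CPM in control cells, below the level of 3 counts in a library. VIM, the most abundant, fell slightly (log2 fold change -0.13), and EZR did not pass. CCND1, IL6 and IL8, classical targets chosen after their values were seen, were too low to test. Scaled by library totals, 2 of the targets fell, and 1 fell without OTX2 knockout replicate 1 or 2.

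Of 15 tested EGR corepressors and EGR1 targets, 9 rose and 2 fell (median log2 fold change 0.26). For this list and the next, the shares over all tested genes were 21.2% up and 18.5% down. The corepressor NAB1 rose 1.21-fold, FN1 1.47-fold and ID3 1.51-fold, while THBS1, among the most abundant, did not pass. Only 1 gene of this list fell when libraries were scaled by their totals, when control replicate 2 was left out, and when OTX2 knockout replicate 1 or 2 was left out. Heat shock genes, whose RNA also responds to handling stress, showed 2 rises and 7 falls among 18 tested, with a median log2 fold change of -0.03. The chaperone HSPA5 of the endoplasmic reticulum rose 1.48-fold and BAG3 1.29-fold, HSPD1 fell to 1988 CPM in OTX2 knockout cells, against 2525 CPM in control cells, and HSPA8, the most abundant, did not pass. Scaled by library totals, 2 heat shock genes fell, and without OTX2 knockout replicate 3 there were 5 rising ones.

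RefSeq promoter windows with the AP-1 site TGACTCA were also looked at across the transcriptome. Of 512 tested genes with the site in their window, 33.2% rose (median log2 fold change of all 512 genes 0.064), against 23.9% of the 10764 tested genes with a window, whose median was -0.0014. The AP-1-like site TGACATCA had 32.2% of 261 genes up, the CArG box 33.1% of 166 and TATAAA 30.4% of 950. The core TGACG had 21.7% of 4218 genes up, and TAATCC 27.2% of 761. The whole element TGACGTCA had 21.9% of 397 genes up, and the EGR site GCGTGGGCG 21.3% of 178. The share that fell was 21.9% over all tested genes with a window. It was higher with TAATCC (25.2%), the EGR site GCGTGGGCG (24.7%), TGACATCA (23.0%), the CArG box (22.9%) and the core TGACG (22.4%). It was lower with TATAAA (19.7%) and with the AP-1 site TGACTCA. Base composition differs between these motifs, and its part in these shares was not tested.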

How the data were processed

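RNA from 6 cultures of D283 was measured. Per the labels, 3 were controls and 3 OTX2 knockout, all of 1 line, and p-values reflect how those cultures varied. The authors deposited unnormalized counts per gene symbol. Per the submitters' processing notes, STAR and the build hg38 were used, while program and settings of the counting step are not stated in the sources used here. Of 50883 symbols, 17682 had 0 counts in all libraries. Replicates differed by more than sampling noise (chi-square per degree of freedom 3.97 to 18.9).

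The analysis used edgeR 4.0.16 (R 4.3.3): filterByExpr at its defaults, TMM scaling and the quasi-likelihood F test, with Benjamini-Hochberg adjustment over the 18420 tested genes and a threshold of 0.05. Fold changes are ratios of mean CPM, and log2 fold changes come from the fit. It left 4 residual degrees of freedom, and the biological coefficient of variation came to 5.30%. At these depths 3 counts correspond to 0.0471 to 0.0563 CPM, which covers counting error only. Genes changed more upwards than downwards by 3908 to 3404, and by 5210 to 2034 with library totals alone, which shifted the median log2 fold change of all genes to 0.08.

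Gene lists came from textbook knowledge, and 6 listed symbols were matched through older names. Lists were described by counts and medians, without a set test. Several genes, such as JDP2, ZFP36 and ZFP36L1, are in a pair of lists, so the counts of such lists are not independent. Named genes were OTX2, the 10 genes, the 4 smallest adjusted p and the 2 highest mean CPM of each list, and the 2 most similar patterns for each called gene. Some genes that this rule takes are not printed, and others are named as chosen after their values were seen. The genes, lists and tests were chosen with earlier results of these data known. Lengths and overlaps came from GENCODE release 29, with a gene marked uncertain where an overlapping gene held over 10% of its count. Alternatives were other scalings and filters, DESeq2 1.42.0, limma-voom (limma 3.58.1), removal of mitochondrial genes and leaving out each library. On simulated data for this comparison, with 17766 genes, edgeR found 62% of the 1.2-fold changes, 90% of the 1.5-fold changes and 100% of the 2-fold changes. The simulation changed only a small share of the genes and none of the lowest, whereas 39.7% of the tested genes were called in the data. These rates may therefore differ from those in the data.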

Additional observations from a re-analysis of the deposited data

How the results depend on the processing

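The rises of FOS, FOSB, FOSL2, JUN and ATF3 kept their direction and their call under each of the 14 alternatives, with log2 fold changes from 0.72 to 1.14 for FOS, 0.51 to 0.90 for FOSB, 0.66 to 0.77 for FOSL2, 0.73 to 0.83 for JUN and 0.27 to 0.40 for ATF3. EGR1 kept its call in 13 of 14, with log2 fold changes from 0.62 to 1.18. JUNB lost its call in 7 of 14, among them limma-voom (adjusted p = 0.0522) and the stricter filter (1 CPM or more in 3 or more libraries) (adjusted p = 0.0562 by edgeR). IER2 gained a call in 4 of 14, among them library totals alone (adjusted p = 0.0329 by edgeR) and no filter (adjusted p = 0.00661 by edgeR). JUND, not called in any, changed sign with library totals alone (log2 fold change 0.067), upper-quartile factors (0.0053) and the stricter filter (0.0032), and ranged from -0.049 to 0.029 when 1 library was left out. The number of the 10 genes that rose was 5 with DESeq2 and 6 with limma-voom, and lay between 6 and 8 when 1 library was left out. The number of all genes that fell moved to 2034 with library totals alone. With the longest transcript as length, 6 genes kept their place in the order. Of 160 list counts under settings added after the data were seen, 137 stayed within 1.5 times the value given. No paired analysis was possible because the labels give the groups no shared replicate numbers, and the numbers used here follow sample order within each group. The causes of these changes were not tested. FOSL1 had the lowest counts of the 10 genes, 56 to 81 per library.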
